A study of Mus musculus with 12 samples.

Results

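Mast cells whose Kit gene had been edited with Cas9 were compared before and after crosslinking of their IgE receptor, and the transcripts that rose and fell are described here by function. The comparison covered 6 of the 12 samples of the series, chosen by their labels as all samples with Kit as the modified gene, 3 of them stimulated and 3 unstimulated. The cells were primary bone marrow derived mast cells (BMMCs), grown from whole marrow of C57BL/6 mice aged 6 to 8 weeks for at least 4 weeks in IL-3, and they carried a ZsGreen reporter with a polyA-stop cassette inserted into Kit by homology-directed repair. Cells were sorted for high ZsGreen, so each sample was a pool of edited cells and not a clone, and these pools were then left resting (labelled US) or crosslinked through their IgE receptor over 4 h (labelled IgE). The stimulus was 1 µg/ml of anti-DNP IgE with 0.2 µg/ml of the antigen HSA-DNP. In the study these cells served as the edited control for cells in which Mettl3, encoding an RNA methyltransferase, had been modified in the same way, and the other 6 samples are those cells. The replicate numbers 1, 2 and 3 come from the sample titles, and each has a stimulated and an unstimulated sample. The titles do not say whether samples of the same number came from 1 set of cells.

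Mast cells are tissue-resident cells of the innate immune system that carry IgE bound to the high-affinity receptor FcεRI. Antigen that crosslinks this IgE starts a signalling cascade through Src-family kinases, Syk and the adaptor LAT, which leads first to the release of preformed granules holding histamine and proteases, then to lipid mediators, and over hours to transcription of cytokines and chemokines through NFAT, AP-1 and NF-κB factors. c-Kit, the receptor for stem cell factor, is highly expressed by mast cells and supports their growth and survival. Transcripts were measured with the nCounter Myeloid Innate Immunity Panel, a hybridization assay that reads mRNA molecules directly by tallying the fluorescent barcodes of bound probes, with no cDNA step.

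The sequences that define these cells are the guides of the edit, shown in lower case with the protospacer-adjacent motif (PAM), read from the genome, in capitals.
crRNA_Kit_1: agtcgggatcaatgcacgtcAGG
crRNA_Kit_2: aaagccgaggccactcgcacGGG
In GRCm39, crRNA_Kit_1 matched the minus strand at chr5:75767786-75767805 and crRNA_Kit_2 the plus strand at chr5:75767877-75767896, and each had 1 perfect match on chromosome 5. Both sites lie in exon 2 of Kit, a coding exon (chr5:75767686-75767958), a gene on the plus strand of chromosome 5 from 75735576 to 75817404 with 21 exons in transcript Kit-204. Both expected cuts lie inside this exon and are 105 bases apart. The panel probes Kit at base 4275 of its RefSeq transcript, far from exon 2, which covers bases 204 to 476 of Kit-204, so this count reads the transcript downstream of the edited exon and not the edited exon itself.

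Kit gave 1856, 2856 and 2826 scaled counts at rest and 1159, 1613 and 738 after stimulation, in the order of replicates 1, 2 and 3. Transcript downstream of the edited exon was thus abundant in all 6 samples labelled as Kit-edited, whose inserted cassette carries a polyA-stop, and the share of edited alleles was not measured in these data. From staining of ZsGreen-sorted cells, the paper reports loss of the targeted protein, which is c-Kit in these cells. The RNA count does not read c-Kit protein. For Kit transcript, every stimulated sample lay below every unstimulated one. The log2 fold change was -1.103 ± 0.32 (SE, n = 3 per group), with an adjusted p of 0.0334. Here and throughout, a scaled count is the deposited count divided by a factor from the sample's 20 housekeeping probes, values by sample keep this order, the log2 fold change is the fitted difference of stimulated over unstimulated cells with its standard error, and the adjusted p comes from edgeR's quasi-likelihood test after Benjamini-Hochberg adjustment over all tested genes.

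Summed over endogenous probes, these 6 samples held 504238 to 655936 counts each. The 8 negative controls averaged 7.13 to 20.3 counts in a sample, which makes levels below some 20 counts indistinguishable from background. The positive controls were dimmer in both samples of replicate 1, at geometric means of 738 and 768 counts, than in the other 4 samples, at 1297 to 1623. The geometric mean of the housekeeping probes was higher in the stimulated than in the unstimulated sample of each replicate, at 316 against 245, 332 against 292 and 457 against 373 counts, so housekeeping scaling lowered stimulated values relative to scaling by the positive controls. A scaled count measures a transcript relative to these probes in pooled cells, so that a change in the mix of cells and a change within each cell cannot be told apart.

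Stimulation raised 66 and lowered 37 of the 545 genes that reached 20 counts in 3 or more of the 12 samples, out of 734 endogenous genes on the panel. These calls, at an adjusted p under 0.05, amount to 12.1% of tested genes risen and 6.79% fallen. The risen genes changed by a median of 2.30 on the log2 scale (range 0.71 to 7.29) and the fallen genes by a median of -1.32 (range -2.86 to -0.89), while the median over all tested genes was -0.05. The groups did not overlap for 64 of the 66 risen genes and 36 of the 37 fallen genes, against 100 of all tested genes with every stimulated sample above every unstimulated one (18.3%) and 84 with every stimulated sample below (15.4%). Under the looser thresholds used in the study (unadjusted p up to 0.05 with a change of 1.5-fold or more), 103 genes were up (18.9%) and 81 down (14.9%).

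The number of calls depended on single samples, while the direction of all 103 called genes was the same under every alternative run. Leaving out 1 of the 6 samples gave between 30 and 63 risen genes and between 13 and 44 fallen genes. Without unstimulated replicate 1 the counts were 30 risen and 16 fallen, without stimulated replicate 3 they were 38 and 13, and without unstimulated replicate 3 they were 39 and 18. Without both libraries of replicate 1, 2 or 3 in each genotype, 24, 37 and 31 genes rose and 8, 12 and 7 fell. The calls of 27 risen and 11 fallen genes held in each of the 6 fits that left out 1 sample, and for other genes the number of these fits in which the call held is given beside the value. With the replicate number as a block, which compares stimulated and unstimulated samples of the same number, 89 genes rose and 67 fell. Scaling by the positive control probes alone, under which the median of all genes moved to 0.17, gave 67 risen and 9 fallen genes, among them 55 of the 66 risen and 9 of the 37 fallen genes. Fcgr2b, Fcgr3, Ms4a2, Cx3cr1, Il15, Pim2, Tmem173 and Hdac5 were among the 9 that fell under both scalings. The 6 fits that left out 1 sample all used housekeeping scaling, and the 11 fallen genes that held in each were not all among these 9. A fall given as held in 6 of 6 can therefore lack a call under positive control scaling. With the housekeeping probes of at least 100 mean counts that median was 0.05.

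**Figure D1:**
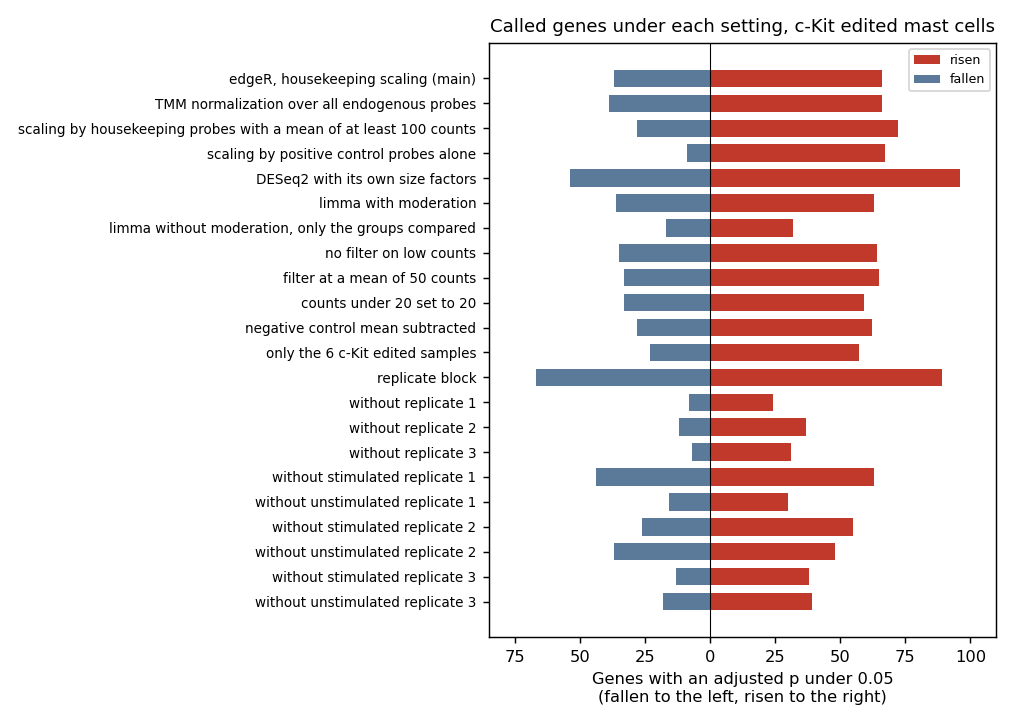
Number of genes with an adjusted p under 0.05 in c-Kit edited cells under each setting, fallen genes as bars to the left and risen genes as bars to the right of 0. Under scaling by positive control probes alone the risen bar has 67 genes and the fallen bar 9, and both shrink when a whole replicate is left out.

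The lists of cytokines, chemokines and T cell ligands had the highest shares of risen members. Over all tested genes, 12.1% rose and 6.79% fell. Among tested members, 9 of 22 cytokines, 10 of 23 chemokines, 7 of 21 T cell ligands and costimulatory molecules, 7 of 33 activation transcription factors and 5 of 22 feedback inhibitors rose, with list medians of 0.87, 0.35, 0.35, 0.65 and 0.85 on the log2 scale. Fallen genes made up 4 of 20 tested members of the list of the IgE receptor and its proximal signalling and 3 of 11 cell cycle genes, whose list medians were -0.29 and -1.35. Neither antigen presentation, with 0 of 20 members called, nor the innate sensors and interferon genes, with 0 of 26 risen and 2 fallen, held a risen gene. A further 7 risen and 12 fallen genes belonged to none of the lists.

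**Figure D2:**
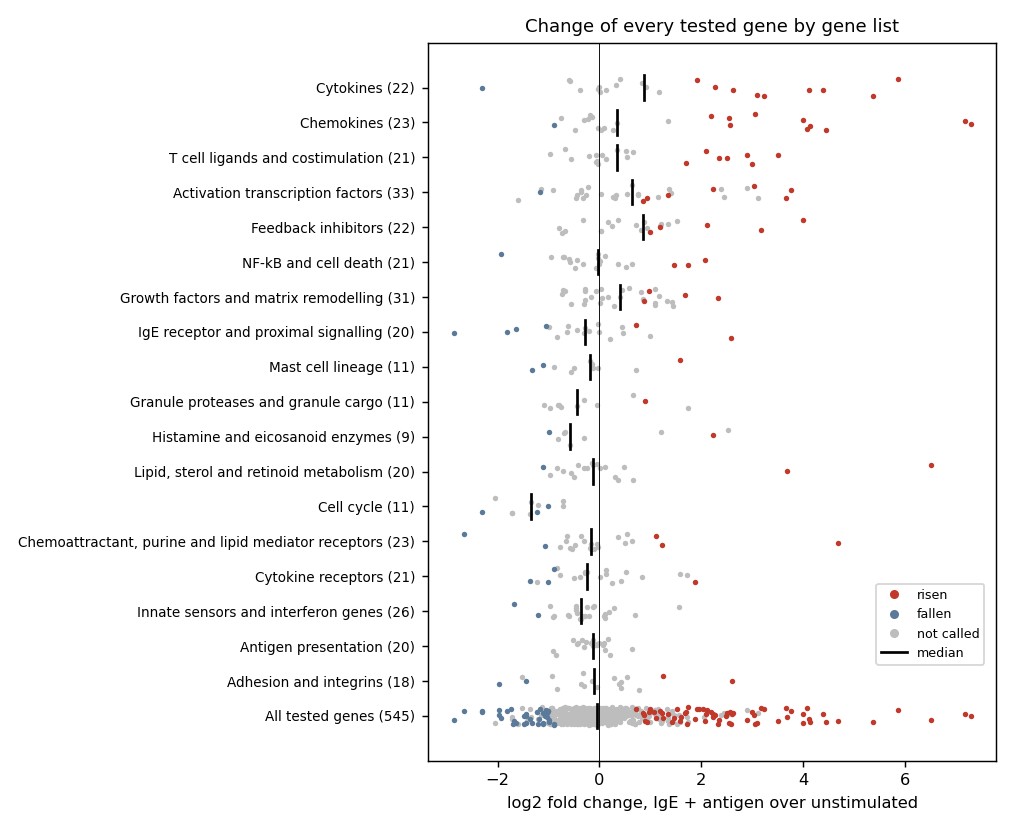
Fitted log2 fold change (stimulated over unstimulated c-Kit edited cells) of every tested gene, one point per gene, by gene list with the number tested in parentheses; black bars mark medians. Cytokine and chemokine points reach 5.87 and 7.29, while the median of all tested genes lies at -0.05.

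Cytokines rose by up to 5.87 on the log2 scale, and the 9 risen genes were Il1a, Il1b, Il13, Csf2, Il6, Il3, Il9, Csf1 and Tnf. Il13, which drives type 2 responses, had scaled counts of 56.2, 53.9 and 92.4 in unstimulated and 1583, 298 and 2378 in stimulated cells, a log2 fold change of 4.39 ± 0.80 with an adjusted p of 0.00302. All 3 stimulated samples lay above the unstimulated range, with replicate 2 the lowest of the 3 by far. Il1b went from 30.1, 55.1 and 46.7 to 383, 455 and 1449 (4.11 ± 0.55, adjusted p = 0.000597), highest in stimulated replicate 3. Il1a, the other interleukin-1 ligand, was at background without stimulation, at 4.11, 10.3 and 11.7, and reached 273, 207 and 1103 after it, a fitted change of 5.87 ± 0.80 (adjusted p = 0.000597) that was 4.54 when counts under 20 were set to 20. Csf2, encoding the growth factor GM-CSF, changed from 6.85, 21.8 and 11.7 to 375, 144 and 1180.2, with 5.38 ± 1.21 as fitted, 4.64 with the floor of 20 and an adjusted p of 0.0108 (held in 5 of 6).

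Il6, a broadly acting inflammatory cytokine, was already expressed at rest, at 729, 936 and 667, and reached 3598, 2373 and 2845 (1.92 ± 0.47, adjusted p = 0.0177, held in 4 of 6). Il3, a mast cell growth factor that is also supplied in the culture, rose from 13.7, 30.98 and 29.6 to 134, 74.6 and 255 (2.62 ± 0.74, adjusted p = 0.0313, held in 2 of 6), and Csf1, the macrophage growth factor, changed by 2.27 (held in 2 of 6). Stimulated replicate 1 stood apart for Tnf, a cytokine that mast cells also store, with 68.5, 50.5 and 33.2 at rest and 901, 162 and 235 after stimulation (3.097 ± 0.99, adjusted p = 0.0459, held in 1 of 6). Without that sample the Tnf change was 1.98, with an adjusted p of 0.168. Il9, which supports mast cell growth, rested on stimulated replicate 3, with 12.3, 26.4 and 14.4 at rest and 29.7, 39.3 and 431 after stimulation (3.23 ± 0.92, adjusted p = 0.0313, held in 2 of 6), and without that sample its change was 0.96 (adjusted p = 0.238). Il15, a growth factor for lymphocytes, was the only cytokine that fell, from 125, 140 and 86.1 to 42.4, 16.1 and 12.5 (-2.32 ± 0.45, adjusted p = 0.00442, held in 6 of 6).

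The cytokines fixed for description whose change did not pass the test were Il4, Lif and Il2. Il4, another type 2 cytokine, had scaled counts of 203, 185 and 206 at rest and 338, 201 and 799 after stimulation (1.17 ± 0.45, adjusted p = 0.09). Lif, a cytokine of the interleukin-6 family, had 594, 591 and 387 and 2114, 348 and 506 (0.92 ± 0.67, adjusted p = 0.391), high in stimulated replicate 1 alone. Il2 stayed close to background, at 8.22, 9.18 and 9.87 and 7.42, 22.2 and 19.05 (0.83 ± 0.74, -0.12 with the floor, adjusted p = 0.492).

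Chemokines included the largest changes of all tested genes. Ccl3 and Ccl4, ligands that attract monocytes and T cells, rose from 45.2, 199.7 and 28.7 to 16478, 6332 and 19890.2 (7.29 ± 1.47, adjusted p = 0.00566) and from 93.1, 127 and 81.6 to 1789, 1249 and 2057 (4.08 ± 0.77, adjusted p = 0.00394). Ccl1, the ligand of CCR8, went from 86.3, 166 and 123 to 6531, 24287 and 23618 (7.18 ± 1.27, adjusted p = 0.00283), with stimulated replicate 1 well below the other 2 stimulated samples. Ccl9, a ligand of CCR1, rose from 274, 321 and 71.8 to 4891, 3618 and 5969 (4.44 ± 0.80, adjusted p = 0.00296). These 4 genes did not overlap between groups in any case, and together they took 0.072%, 0.114% and 0.052% of all endogenous counts at rest and 5.27%, 5.63% and 10.8% after stimulation.

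Ccl24, an eosinophil attractant, gave the chemokine change with the smallest p, from 17.8, 26.4 and 38.6 to 160, 250.2 and 283 (3.05 ± 0.36, adjusted p = 0.000399). Ccl5 rose from background, at 13.7, 21.8 and 13.5, to 262, 82.7 and 439.6 (3.995 ± 0.70 as fitted, 3.53 with the floor, adjusted p = 0.00283). Ccl7 changed by 4.13 (held in 2 of 6), Cxcl14 by 2.55 (1.83 with the floor, 5 of 6) and Ccl12 by 2.18 (1.304 with the floor, 5 of 6). Ccl17, which attracts T helper cells, had overlapping groups, at 23.3, 28.7 and 17.05 and 60.4, 18.2 and 323. Its change was 2.55 ± 0.80 with an adjusted p of 0.042, which was 0.0676 with the replicate block, and it was 0.77 without stimulated replicate 3 (adjusted p = 0.376, held in 2 of 6). Ccl2, a monocyte attractant, was abundant in both groups, at 3511, 5852 and 2773 and 15067, 10318 and 5486, and its change of 1.35 ± 0.56 had an adjusted p of 0.118, or 0.0128 with the replicate block. Cxcl5, a neutrophil attractant, was called as fallen at levels of 12.3, 22.9 and 18.8 and 9.54, 10.1 and 9.52, all near background (-0.899 ± 0.29, -0.302 with the floor, held in 1 of 6).

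Several of these genes are neighbours on chromosome 11. In GRCm38.p6, the build of the RefSeq table used for positions, 9 tested chemokine genes lie on this chromosome, from Ccl2 at 82035577 to Ccl4 at 83664683, and 7 of them rose, against 3 of the 14 on other chromosomes. Over all tested genes 12.1% rose. Ccl6, between Ccl9 and Ccl3 in that run, was not called, with a log2 fold change of 0.02 and an adjusted p of 0.985. The genes of Il4, Il13, Csf2 and Il3 lie on the same chromosome between 53612460 and 54267279, and 3 of these 4 rose. Irf1, a tested gene between Il13 and Csf2, did not rise, with changes of -1.40 to -0.68 over the alternative runs. The cytokine genes Osm, Lif, Il12b and Csf3, elsewhere on this chromosome, were not among the risen genes.

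**Figure D3:**
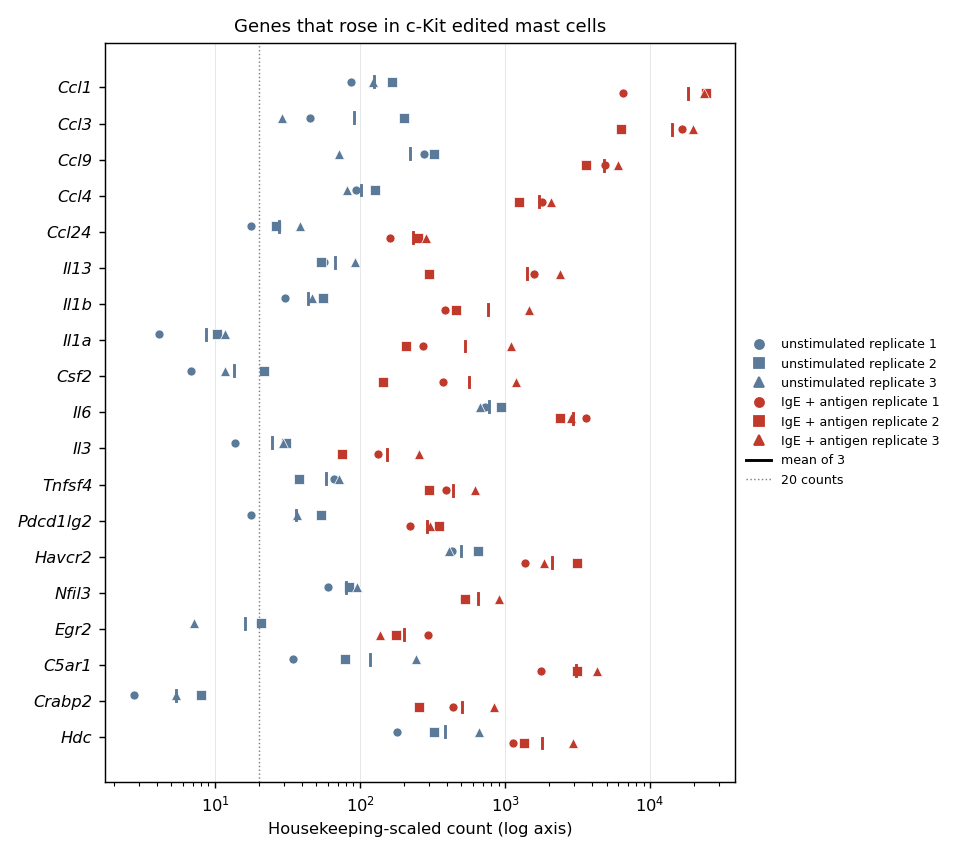
Scaled counts (log axis) of 19 risen genes in the 3 unstimulated (blue) and 3 stimulated (red) c-Kit edited samples, with vertical bars for the mean of 3 and a dotted line at 20 counts. For every gene shown the red points lie above the blue ones, and for Crabp2 and Il1a all blue points lie below 20.

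The sequence before the start of these genes was read for letters that the classical activation factors bind. RefSeq promoters of GRCm38.p6, 250 bases before to 50 bases after the start, were found for 414 of the 545 tested genes, among them 55 risen and 28 fallen genes. The letters searched on both strands were TGANTCA for AP-1, TGACGTCA for the cAMP response element, TTTTCC for NFAT, GGANTTTCC for NF-κB, GCGTGGGCG for EGR factors and AGATAA for GATA factors, and the NF-κB letters can contain the NFAT letters. The promoters of 3 interleukins and of Csf2 are shown, each a risen cytokine gene, in lower case with every match in capitals. They are examples chosen by name, so their matches do not stand for the shares over all risen genes given below.
Il13 (chr11:53634653-53634952, minus strand): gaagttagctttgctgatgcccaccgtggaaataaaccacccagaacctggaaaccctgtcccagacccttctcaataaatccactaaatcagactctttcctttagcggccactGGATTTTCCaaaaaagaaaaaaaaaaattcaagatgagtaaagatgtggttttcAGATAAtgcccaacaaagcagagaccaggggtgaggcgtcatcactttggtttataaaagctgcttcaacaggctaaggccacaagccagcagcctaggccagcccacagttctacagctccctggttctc
Il6 (chr5:30012864-30013163, plus strand): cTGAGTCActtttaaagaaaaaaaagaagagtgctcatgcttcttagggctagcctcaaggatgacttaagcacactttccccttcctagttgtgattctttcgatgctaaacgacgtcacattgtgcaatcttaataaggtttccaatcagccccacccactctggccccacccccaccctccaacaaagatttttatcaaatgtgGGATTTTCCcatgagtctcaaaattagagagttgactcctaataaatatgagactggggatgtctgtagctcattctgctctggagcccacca
Il9 (chr13:56482208-56482507, minus strand): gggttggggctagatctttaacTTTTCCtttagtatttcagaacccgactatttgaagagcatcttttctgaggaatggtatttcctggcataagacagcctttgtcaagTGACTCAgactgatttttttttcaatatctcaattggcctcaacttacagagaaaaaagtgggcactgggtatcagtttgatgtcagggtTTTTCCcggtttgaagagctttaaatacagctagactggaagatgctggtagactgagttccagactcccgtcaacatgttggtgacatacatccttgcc
Csf2 (chr11:54249850-54250149, minus strand): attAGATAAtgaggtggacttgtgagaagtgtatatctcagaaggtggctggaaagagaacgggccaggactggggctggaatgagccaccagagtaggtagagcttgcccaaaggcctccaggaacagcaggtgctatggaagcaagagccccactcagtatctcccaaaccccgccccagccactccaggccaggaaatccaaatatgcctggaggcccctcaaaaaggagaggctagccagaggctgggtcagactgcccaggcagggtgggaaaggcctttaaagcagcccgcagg
Il13 held NF-κB letters at -135 that contain NFAT letters, and GATA letters at -81. Il6 held AP-1 letters at -249 and NF-κB letters at -43 that contain NFAT letters, and Il9 held AP-1 letters at -140 and NFAT letters at -228 and -50. Csf2 held only GATA letters, at -247, within this window.

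AP-1 letters were present in 8 of the 55 risen promoters (14.6%) and in 0 of the 28 fallen ones, against 40 of the 414 tested genes (9.66%) and 8.97% of the 27025 genes of the promoter table. The 8 genes were Ccl9, Fas, Havcr2, Il1a, Il6, Il9, Olr1 and Tnfrsf9. NFAT letters were in 18 risen (32.7%) and 8 fallen promoters (28.6%), against 28.5% of tested and 26.1% of all genes. NF-κB letters were in 3 risen promoters, those of Il13, Il6 and Csf1 (5.45%), and in 6.04% of the tested genes, which was above the 1.45% of all genes. GATA letters were in 9 risen and 3 fallen promoters (16.4% and 10.7%), against 12.1% of tested genes. The cAMP response element was in 1 risen promoter, that of Ell2, and 1 fallen promoter, that of Ndc80, and the EGR letters were in 1 risen promoter, that of Tgfb1. These shares are descriptions of short windows and were not tested.

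Among T cell ligands and costimulatory molecules, 7 of 21 rose and none fell, against 12.1% risen and 6.79% fallen over all tested genes. Tnfsf4, the ligand of OX40 on T cells, rose from 65.7, 37.9 and 71.8 to 389, 299.6 and 615 (2.89 ± 0.36, adjusted p = 0.000399), with no overlap between the groups. Pdcd1lg2, which encodes the inhibitory PD-1 ligand PD-L2, went from 17.8, 53.9 and 36.8 to 219, 349 and 301 (2.99 ± 0.43, adjusted p = 0.000703). Havcr2, encoding the inhibitory receptor TIM-3, was already present at 427, 654 and 410 and reached 1378, 3124 and 1842 (2.09 ± 0.37, adjusted p = 0.00283). Vsir, encoding the checkpoint molecule VISTA, rose from 8.22, 6.88 and 10.8, at background, to 51.9, 30.3 and 68.1 (2.51 ± 0.49 as fitted, 1.15 with the floor, adjusted p = 0.00464). Tnfrsf9, the costimulatory receptor 4-1BB, changed by 3.500 (held in 4 of 6), the inhibitory receptor Tigit by 2.34 (4 of 6), and Tnfsf10, encoding the death ligand TRAIL, by 1.698 (1 of 6). Genes best known for restraining T cells (Pdcd1lg2, Havcr2, Vsir, Tigit) and for costimulating them (Tnfsf4, Tnfrsf9) were both among the risen genes. Havcr2, Tigit and Tnfrsf9 encode receptors, and what any of these molecules does on the mast cells was not tested.

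Of the activation transcription factors, 7 of 33 rose, against 12.1% of all tested genes. Nfil3, a basic leucine zipper factor, changed from 60.3, 83.8 and 95.1 to 523, 528 and 904 (3.03 ± 0.33, adjusted p = 0.000318). Ets1, a factor best known from lymphocytes, went from 35.6, 63.1 and 49.3 to 252, 185 and 262 (2.23 ± 0.31, adjusted p = 0.000597), and Egr2, an immediate-early zinc finger factor, from 20.5, 20.7 and 7.18 to 291, 176 and 137 (3.66 ± 0.51, 3.15 with the floor, adjusted p = 0.000616). Id2, an inhibitor of basic helix-loop-helix factors, was among the abundant transcripts at rest, at 8466, 7464 and 6872, and reached 17873, 26871 and 13495 (1.35 ± 0.33, adjusted p = 0.0157, held in 3 of 6).

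The other risen factors were Batf, a partner of AP-1 and IRF proteins, with a change of 0.86 (held in 3 of 6), Nfatc1 with 0.93 (0 of 6), and Irf4, a partner of BATF. Irf4 had 10.96, 19.5 and 19.7 at rest and 75.2, 42.4 and 569 after stimulation (3.75 ± 0.94, adjusted p = 0.0184, held in 3 of 6), and without stimulated replicate 3 its change was 1.79 (adjusted p = 0.107). Nfatc2 fell where Nfatc1 rose, from 238, 224 and 224 to 150.5, 74.6 and 79.1 (-1.17 ± 0.34, adjusted p = 0.0331, held in 1 of 6).

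On the list of feedback inhibitors, 5 of 22 tested genes rose and none fell, against 12.1% and 6.79% of all tested genes. Whether each restrained the signal that induced it was not tested. Spry2, an inhibitor of Ras and ERK signalling, gave closely spaced values of 56.2, 43.6 and 45.8 at rest and 243, 195 and 193 after stimulation (2.12 ± 0.26, adjusted p = 0.000399). Rgs16, which speeds GTP hydrolysis by G proteins, went from background at 8.22, 14.9 and 8.07 to 158, 155 and 188 (3.99 ± 0.50 as fitted, 2.88 with the floor, adjusted p = 0.000399). Gadd45b, a stress-induced regulator of MAP kinase signalling, rose from 45.2, 43.6 and 64.6 to 263, 594 and 523 (3.16 ± 0.49, adjusted p = 0.00128). Peli1, an E3 ubiquitin ligase of Toll-like receptor signalling, changed by 1.19 (held in 3 of 6) and Cdkn1a, the cyclin-dependent kinase inhibitor p21, by 0.998 (1 of 6).

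Among genes of NF-κB signalling and cell death, 3 of 21 rose and 1 fell, against 12.1% and 6.79% of all tested genes. The death receptor Fas changed by 1.73 (held in 4 of 6) and Ripk2, a kinase of the NOD pathway, by 1.46 (3 of 6, and 0.90 without stimulated replicate 3). Traf1, an adaptor of TNF receptors, changed by 2.07 with overlapping groups, at 9.59, 20.7 and 16.1 and 18.02, 81.7 and 96.7 (1 of 6). Pim2, a survival kinase, fell from 766, 747 and 685 to 255, 162 and 160.4 (-1.93 ± 0.27, adjusted p = 0.000597), which was the fall with the smallest p among tested genes. Growth factors and matrix remodelling genes gave 4 risen of 31 tested, close to the 12.1% of all tested genes. Pdgfa rose from 94.5, 265 and 78.95 to 467, 1007 and 728 (2.33 ± 0.56, adjusted p = 0.0151, held in 4 of 6). Tgfb1 went from 1703, 1875 and 2621 to 3465, 3795 and 4086 (0.87 ± 0.25, 2 of 6), while Fgf2 changed by 0.97 (1 of 6) and the metalloproteinase Adamts9 by 1.69 (0.999 with the floor, 2 of 6), the last from background.

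Both measured chains of FcεRI had lower transcript levels after stimulation, and the fall of 1 of them passed the test. Ms4a2, which encodes the β chain of FcεRI, had 9771, 8086 and 7018 at rest and 3419, 2208 and 1441 after stimulation, lower in every stimulated sample (-1.82 ± 0.33, adjusted p = 0.00302). Fcer1a, the IgE-binding α chain, had 78429, 89372 and 60419.8 at rest and 41326, 51727 and 21722 after stimulation, and again the groups did not overlap. Its change of -0.99 ± 0.43 did not pass the test over all 4 groups (adjusted p = 0.125) and did with the replicate block (adjusted p = 0.00531).

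The low-affinity receptors for IgG fell as well. Fcgr2b, the inhibitory receptor that opposes FcεRI signalling, dropped from 945, 649 and 671 to 163, 93.8 and 54.9, the lowest fitted change of any tested gene (-2.86 ± 0.44, adjusted p = 0.0011). The activating receptor Fcgr3 went from 1056, 1297 and 718 to 253, 545 and 185 (-1.64 ± 0.47, adjusted p = 0.0313, held in 2 of 6), and these 2 receptors have similar sequences, which could let a probe bind both transcripts. Pik3cg, a phosphoinositide 3-kinase used by mast cells downstream of G protein-coupled receptors, fell from 645, 506 and 524 to 299, 248 and 257 (-1.06 ± 0.23, adjusted p = 0.0104, held in 5 of 6).

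In the same list, Fyn and Lat rose. Fyn, a Src-family kinase that acts early after FcεRI crosslinking, went from 50.7, 50.5 and 102 to 279.8, 461 and 479.9 (2.58 ± 0.38, adjusted p = 0.000868). The adaptor Lat changed from 530.1, 587 and 563 to 843, 981 and 930.4, a small but evenly spaced rise (0.71 ± 0.19, adjusted p = 0.0253, held in 2 of 6). Syk, the kinase that links the receptor to LAT, had 303, 189 and 318 and 209.8, 133 and 181 (-0.63 ± 0.28, adjusted p = 0.134), with overlapping groups.

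**Figure D4:**
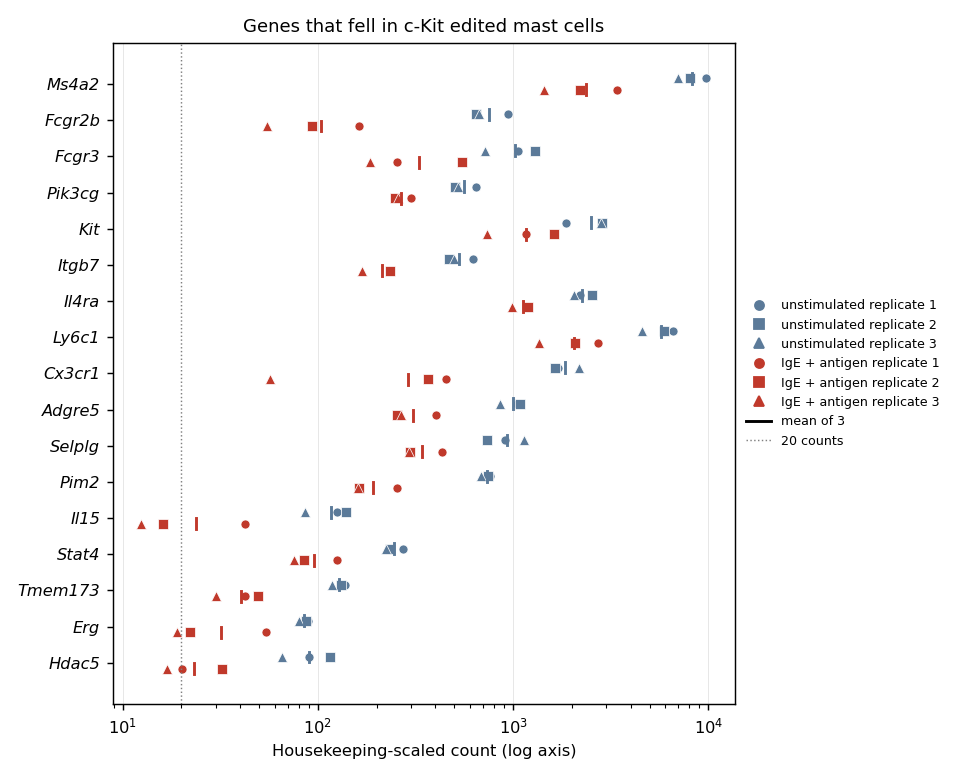
Scaled counts (log axis) of 17 fallen genes in the 3 unstimulated (blue) and 3 stimulated (red) c-Kit edited samples, with vertical bars for the mean of 3 and a dotted line at 20 counts. All red points lie below the blue points of the same gene for each of the 17 genes shown.

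The transcripts that define mast cells stayed abundant in both states. Cpa3, the mast cell carboxypeptidase, had 218961, 219889 and 190726 at rest, which was 31.7%, 30.6% and 32.4% of all endogenous counts, and 92230.2, 140233 and 87129.5 after stimulation, or 16.4%, 22.2% and 18.2%. Every stimulated sample was lower, but its change of -0.98 ± 0.34 did not pass the test (adjusted p = 0.067) except with the replicate block (adjusted p = 0.0107). The chymase Cma1 had 83512, 88977 and 58162 and 64661, 65028 and 40075 (-0.44 ± 0.33, adjusted p = 0.412), and the tryptase Tpsb2 had 16227, 16489 and 8169 and 10331, 13147 and 9561 (-0.31 ± 0.38, adjusted p = 0.621), both with overlapping groups. Lgals3, encoding the lectin galectin-3, was the only risen member of the 11 tested granule genes (0.89, held in 1 of 6). None of the 11 fell, and over all tested genes 12.1% rose and 6.79% fell.

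Of 11 tested lineage genes, 1 rose and 2 fell, against 12.1% and 6.79% of all tested genes. Besides Kit (call held in 2 of 6), Itgb7, the integrin chain that guides mast cell progenitors to the gut, fell from 622, 467 and 499 to 234, 234 and 168 (-1.32 ± 0.33, adjusted p = 0.0181, held in 4 of 6). Siglecf, a lectin of eosinophils and some mast cells, rose by 1.58 from background levels (1.02 with the floor, 1.05 without stimulated replicate 3, 1 of 6). Il1rl1, the IL-33 receptor, had 24089, 29406 and 22576 and 25858, 26195 and 17111 (-0.14 ± 0.33, adjusted p = 0.814). The lineage factors Gata1, at 347, 451 and 406 and 414, 391 and 258, and Gata2, at 4226, 4189 and 4070.4 and 3257, 2837 and 2759.7, changed by -0.18 ± 0.23 and -0.496 ± 0.22 (adjusted p = 0.63 and 0.127), and only for Gata2 did the groups not overlap.

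Hdc, the enzyme that makes histamine, rose from 181, 322 and 658 to 1134, 1358 and 2924 (2.22 ± 0.67, adjusted p = 0.0369, held in 2 of 6). Its unstimulated level varied widely between replicates, and the rise within each was 2.64, 2.07 and 2.15 on the log2 scale. Ptgs2, the inducible cyclooxygenase, had 13.7, 19.5 and 8.07 at rest, at background, and 98.6, 64.6 and 73.3 after stimulation, without overlap. Its adjusted p was 0.0699, or 0.0212 with the replicate block, for a change of 2.52 ± 0.88. Hpgds, the mast cell prostaglandin D synthase, had 514, 612 and 301 and 485, 286 and 103 (-0.71 ± 0.50, adjusted p = 0.374). Cbr1, a carbonyl reductase, fell by 0.999 on the log2 scale (held in 1 of 6).

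Crabp2, the cellular carrier of retinoic acid, gave the smallest p of all tested genes. Its scaled counts were 2.74, 8.03 and 5.38 at rest, all below 20, and 435, 254 and 835 after stimulation (6.51 ± 0.59 as fitted, adjusted p = 7.29e-05). With counts under 20 set to 20 the change was 4.48. Olr1, the receptor for oxidized low-density lipoprotein, rose from 10.96, 20.7 and 17.9 to 199, 174 and 272 (3.68 ± 0.62, 3.24 with the floor, adjusted p = 0.00224). Acot11, an acyl-CoA thioesterase, fell by 1.11 (held in 1 of 6), and the other 17 tested genes of lipid, sterol and retinoid metabolism were not called. With 2 risen and 1 fallen of 20, the shares of this list were close to the 12.1% and 6.79% of all tested genes.

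Of the 23 tested receptors for chemoattractants and other mediators, 3 rose and 2 fell, shares close to the 12.1% and 6.79% of all tested genes. C5ar1, the receptor for complement fragment C5a, rose from 34.2, 78.03 and 241 to 1758, 3136 and 4314 (4.69 ± 0.77, adjusted p = 0.002). Ccr1 changed from 201, 216 and 252 to 387, 625 and 434 (1.11 ± 0.33, adjusted p = 0.0369, held in 1 of 6), and the adenosine receptor Adora2a by 1.22 (2 of 6). Cx3cr1, the fractalkine receptor, fell from 1692, 1633 and 2180.1 to 451, 365 and 57.1, most in replicate 3 (-2.66 ± 0.55, adjusted p = 0.00652, held in 6 of 6). Ltb4r2, a leukotriene B4 receptor, fell by 1.07 (3 of 6).

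Among cytokine receptors and their signal carriers, 1 of 21 rose and 3 fell, against 12.1% and 6.79% of all tested genes. Il4ra, the receptor chain shared by IL-4 and IL-13, fell from 2190.1, 2529 and 2049 to 1198, 1190.4 and 989.8 (-1.003 ± 0.25, adjusted p = 0.0181, held in 4 of 6). Stat4 fell from 274, 235 and 224 to 125, 84.7 and 75.5 (-1.36 ± 0.26, adjusted p = 0.00358, 6 of 6), and Ifnar2, a chain of the type I interferon receptor, by 0.89 (1 of 6). Il21r changed by 1.87 (2 of 6), and by 1.20 without stimulated replicate 3. In the interferon list, Tmem173, which encodes the DNA-sensing adaptor STING, fell from 137, 132 and 118 to 42.4, 49.4 and 30.04 (-1.67 ± 0.34, adjusted p = 0.0062, held in 6 of 6). Usp18, which removes the ubiquitin-like protein ISG15, fell by 1.21 (1 of 6).

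Adhesion molecules gave 2 risen and 2 fallen genes of 18, against 12.1% and 6.79% of all tested genes. Ceacam1 rose from 17.8, 20.7 and 34.99 to 107, 195 and 149 (2.597 ± 0.46, adjusted p = 0.00283) and the integrin chain Itgb2 from 52.05, 56.2 and 60.1 to 112, 125 and 160.4 (1.24 ± 0.33, held in 2 of 6). Selplg, the P-selectin ligand PSGL-1, fell from 914, 738 and 1131 to 432, 296 and 294 (-1.45 ± 0.35, adjusted p = 0.0157, held in 4 of 6). Cdh1, encoding E-cadherin, was low throughout, at 28.8, 11.5 and 57.4 and 9.54, 11.1 and 5.13, near or below background after stimulation, and its change of -1.97 was -0.9998 with the floor and -1.23 without unstimulated replicate 3 (1 of 6).

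Cell cycle genes had the lowest list median, at -1.35 on the log2 scale over 11 tested members, against -0.05 over all genes. At an adjusted p under 0.05, 3 fell and none rose, against 6.79% of all tested genes fallen and 12.1% risen. Downward, 8 passed the thresholds of the study, against 14.9% of all tested genes. Every stimulated sample lay below every unstimulated one for 2 of the 11, against 15.4% of all tested genes. Among the fallen genes were Ccnb2, the mitotic cyclin B2, and Ndc80, a kinetochore protein. Ccnb2 had 344, 60.8 and 289.8 at rest and 99.6, 22.2 and 19.8 after stimulation, overlapping because of the low unstimulated replicate 2 (-2.303 ± 0.70, adjusted p = 0.0386, held in 2 of 6), and its change was -3.46 without stimulated replicate 1. Ndc80 went from 31.5, 19.5 and 26.9 to 10.6, 15.1 and 12.5, near background (-1.02 ± 0.30, -0.55 with the floor, 2 of 6). Top2a, the topoisomerase of dividing cells and a gene not called, showed the same low unstimulated replicate 2, at 623, 115 and 661 and 271, 37.3 and 116 (-1.72 ± 0.74, adjusted p = 0.124, or 0.0321 with the replicate block). Within each replicate its stimulated sample was the lower one, with differences of -1.20, -1.59 and -2.50 on the log2 scale.

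Of the 7 risen genes in none of the lists, Gsn, the actin-severing protein gelsolin, was abundant and rose from 1239.6, 1051 and 1549 to 4259.5, 2752 and 3313 (1.43 ± 0.24, adjusted p = 0.00221). The transcription elongation factor Ell2 rose from 12.3, 20.7 and 15.3 to 50.9, 70.6 and 151 (2.49 ± 0.50, 2.01 with the floor, adjusted p = 0.00576) and complement C3 from 13.7, 20.7 and 18.8 to 48.8, 40.4 and 87.2 (1.72 ± 0.34, 1.37 with the floor, adjusted p = 0.00541). The atypical protein kinase Prkci changed by 1.08 (held in 5 of 6), the granzyme inhibitor Serpinb9 by 1.53 (3 of 6, and 0.84 without stimulated replicate 3), Marcksl1 by 2.04 (1.02 with the floor, 0 of 6) and the GTPase Rhoc by 1.596 (0.75 with the floor, 4 of 6), the last 2 from background.

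The 12 fallen genes in none of the lists included Hdac5, a class II histone deacetylase, from 90.4, 116 and 65.5 to 20.1, 32.3 and 16.8 (-1.97 ± 0.35, adjusted p = 0.00283, held in 6 of 6). Adgre5, the adhesion receptor CD97, fell from 1051, 1084 and 857 to 402, 255 and 265 (-1.698 ± 0.30, adjusted p = 0.00286, 6 of 6). The translation repressor Eif4ebp2 gave tightly grouped values of 345, 339.6 and 338 at rest and 162, 188 and 162 after stimulation (-0.999 ± 0.21, adjusted p = 0.00821, 6 of 6), and the actin-binding protein Cnn2 fell from 437, 164 and 309 to 131, 61.5 and 80.6 (-1.73 ± 0.38, adjusted p = 0.00878, 6 of 6). The rest were Nox4, Erg, Rgl1, Sptbn1, Txndc16, Smad1, Hmgb1 and Mob3c, with log2 fold changes of -1.49, -1.43, -1.44, -1.18, -1.11, -1.06, -1.03 and -1.03. Their calls held in 2, 2, 1, 5, 2, 1, 2 and 1 of the 6 fits, in the same order.

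Most markers of other cell types were low, and the abundant ones, Cx3cr1 and Ly6c1, fell. The 12 macrophage markers summed to between 1835 and 2381 scaled counts at rest and between 210.3 and 616 after stimulation, of which Cx3cr1 made up 57.1 of 210.3 in stimulated replicate 3 and most of the sum in the other 5 samples, and the defining markers Adgre1 and Csf1r stayed between 19.1 and 32.3 and between 9.6 and 21.2. The 10 lymphocyte and dendritic cell markers summed to between 4812 and 6755 at rest and between 1972 and 3027 after stimulation, with Ly6c1 the most abundant of them in all 6 samples. Ly6c1, which has a near-identical neighbour in Ly6c2, fell from 6570.4, 5959.9 and 4595 to 2732, 2067 and 1363 (-1.47 ± 0.37, adjusted p = 0.0181, held in 4 of 6). Gata3, a factor of T helper 2 cells and innate lymphoid cells, rose from 79.4, 61.96 and 87.03 to 178, 191 and 514 (1.95 ± 0.53, adjusted p = 0.0263, held in 2 of 6), and by 1.27 without stimulated replicate 3 (adjusted p = 0.125), while the T cell genes Cd28 and Cd247 lay between 9.6 and 16.1 and between 20.5 and 47 in all 6 samples. The 12 neutrophil and eosinophil markers summed to between 161 and 211 at rest and between 132 and 183 after stimulation, and none of their 3 tested members was called. The part of other cells in the results was not tested.

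The size and make-up of the response varied between the 3 replicates. The median change within a replicate over the 66 risen genes was 2.29, 1.87 and 2.55 on the log2 scale in replicates 1, 2 and 3, and over the 37 fallen genes it was -1.18, -1.32 and -1.69, with 65 or more risen and all fallen genes moving in the called direction in each. Since these genes were called from the same samples, these values only describe the replicates. Stimulated replicate 3 had the highest level of 42 risen genes, replicate 2 of 16 and replicate 1 of 8, and it had the lowest level of 27 fallen genes.

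A small set of immediate-early genes, chosen for display after their values were seen, was high in stimulated replicate 1. Nr4a1, an orphan nuclear receptor induced by calcium signals, had 27.4, 16.1 and 16.1 at rest and 433, 35.3 and 46.9 after stimulation (3.11 ± 1.27, adjusted p = 0.11). Fosb, an AP-1 subunit, had 50.7, 33.3 and 18.8 and 475, 34.3 and 28.6 (2.39 ± 1.07, adjusted p = 0.135). Egr3 had 179, 29.8 and 17.05 and 1427, 95.8 and 149 (2.899 ± 1.19, adjusted p = 0.111, or 0.0138 with the replicate block), and the AP-1 subunit Jun had 333, 224 and 140 and 1114, 360.1 and 308 (1.36 ± 0.59, adjusted p = 0.125, or 0.00379 with the block). None of these 4 was called without the block, and stimulated replicate 1 was also the highest sample for Tnf and Lif. Unstimulated replicate 1 was also the highest at rest for these 4 genes, and the difference within replicates 1, 2 and 3 was 3.94, 1.09 and 1.48 on the log2 scale for Nr4a1 and 2.98, 1.65 and 3.05 for Egr3.

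**Figure D5:**
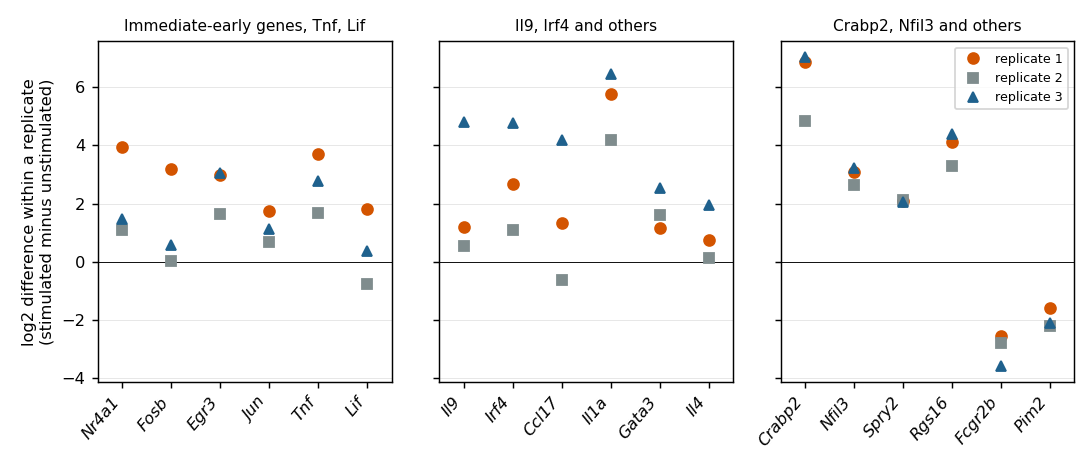
Difference in log2(scaled count + 1) between the stimulated and the unstimulated sample of each replicate for 18 genes in 3 groups, one marker per replicate. Nr4a1, Fosb and Lif changed most in replicate 1, Il9, Irf4, Ccl17 and Il4 most in replicate 3, and the 3 markers lie close together for Spry2 and Nfil3.

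The same stimulation was given to the Mettl3 edited cells, which allows a test of whether any change was particular to the c-Kit edited cells. In those cells 120 genes rose (22.0%) and 58 fell (10.6%) at an adjusted p under 0.05. All 66 risen genes of the c-Kit edited cells had a positive and all 37 fallen genes a negative fitted change there. Of the risen genes 64 were called in both, which is 64 of 66 and 64 of 120, and of the fallen genes 32 were called in both, which is 32 of 37 and 32 of 58. The interaction of genotype and stimulation passed the threshold for 0 of 545 genes (0.0%, edgeR, smallest adjusted p = 0.562), with 23 at an unadjusted p under 0.05. How large a difference this interaction could detect with so few samples was not simulated. The absence of calls therefore does not show that the responses were equal.

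Among the called genes, Il3 and Tnf had an unadjusted interaction p under 0.05. Il3 changed by 2.62 in c-Kit edited and 5.90 in Mettl3 edited cells (interaction adjusted p = 0.827), and Tnf by 3.097 and 6.17 (interaction adjusted p = 0.993). DESeq2 gave 2 genes with an adjusted interaction p under 0.05, both at 0.00888. These were Il2, with fitted changes of 0.83 and 4.81, and the eotaxin receptor Ccr3, with -0.63 and 2.11, neither of which was called in the c-Kit edited cells.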

How the data were processed

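RNA of 12 mast cell samples (40 ng each) was hybridized for 16 h at 65 °C. The authors read the barcodes on an nCounter SPRINT and deposited raw counts per probe, which are whole numbers without any scaling. Alongside them, the deposited table gives each probe's mean, extremes and coefficient of variation, a score not used here. Sample titles identified all columns, with 0 left over.

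Counts were divided by each sample's geometric mean of 20 housekeeping probes. Genes were tested in 1 model of the 4 groups with edgeR 4.0.16 (R 4.3.3, quasi-likelihood test, Benjamini-Hochberg adjustment), and standard errors were taken from the fold change and its F statistic. Gene lists and members were chosen with earlier results of these data known. Values by sample were given for 25 genes chosen by name and for up to 4 risen and 4 fallen genes of each list. Il9, Irf4, Ccl17, Syk, Top2a and 4 immediate-early genes were added to these after their values were seen. The floor is a fit with counts under 20 set to 20. The result of 1 called gene is not reported here. Differences within a replicate used log2(scaled count + 1).

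The study gives the replicates as independent. The labels number them without saying whether samples of the same number came from 1 set of cells. Deviations from the group means of same-numbered stimulated and unstimulated samples correlated at 0.52, 0.46 and 0.25 over 545 genes, against -0.39 to -0.05 for different numbers. Deviations within a group cancel out, so positive values for equal numbers bring negative ones for the others. Samples of the same number resembled each other, and whether through shared cells or shared handling was not tested. A model with the replicate number as a block was an alternative. Others were TMM normalization, DESeq2 1.42.0, limma 3.58.1, other scalings, filters and floors, the 6 samples alone, and fits without single replicates or, chosen after seeing the data, without single samples. On simulated counts of 545 genes for this comparison, 47 of 100 genes changed by 1 on the log2 scale and 87 of 100 changed by 2 were called, with 3 false calls among 345 unchanged genes.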

Additional observations from a re-analysis of the deposited data

Results flagged for a closer look

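Among the 189 genes left untested because of low counts, 4 exceeded the highest negative control count of the c-Kit edited samples, 31, in a stimulated sample and in no unstimulated one. All 4 did so in stimulated replicate 3. Lta, encoding lymphotoxin α, had 78 counts there and 7 to 13 in the other 5 samples. Il5, a type 2 cytokine that acts on eosinophils, had 54 counts against 4 to 12. Il33, an alarmin, had 41 counts against 9 to 17, and Cd27, a costimulatory receptor, had 39 against 5 to 14. These are deposited counts without scaling and were not tested.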

How the results depend on the processing

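The direction of all 103 called genes was the same under every alternative run. Scaling by positive control probes alone left 9 fallen genes in place of 37, limma without moderation on the groups compared gave 32 risen and 17 fallen genes, and a model of only the 6 c-Kit edited samples gave 23 fallen genes. With the replicate block 67 genes fell, including all 37 of the model without it. Ccl17 lost its call (adjusted p = 0.0676), Ccl2, Cpa3, Fcer1a and Ptgs2 gained one (adjusted p = 0.0128, 0.0107, 0.00531 and 0.0212), as did Jun, Egr3 and Top2a (adjusted p = 0.00379, 0.0138 and 0.0321), and the block changed the call of no other gene named with a test. DESeq2 gave 2 genes for the interaction with genotype, where edgeR gave 0. Leaving out a replicate or a single sample gave between 24 and 63 risen and between 7 and 44 fallen genes. With a pseudocount of 20 in place of 1, the median change within replicates 1, 2 and 3 was 1.70, 1.37 and 2.12 over the risen genes, and -1.35 over the fallen genes in replicate 3. The other alternatives gave counts of risen and fallen genes within 1.5 times those reported. The causes of these shifts were not tested. Counts below 20 limit the folds of the 14 risen genes that were under this level in all 3 unstimulated samples. Replicates of 3 per group limit the calls of small changes.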
